A study of Mus musculus with 4 samples.

Results

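The cytosolic ribosomal protein genes were examined on 4 one-colour Agilent arrays of progenitors sorted from the bone marrow of adult mice. A gene was a member when its symbol in the authors' deposited signal table was Rpl or Rps followed by a number and at most an a or x, or was Rplp0, Rplp1, Rplp2 or Rpsa. Kinase names such as Rps6kb1 did not match. The rule found 187 spots, which carried 178 probes for 76 genes, out of 24278 genes with a symbol on the array. The genes divide into 30 of the small subunit and 46 of the large subunit. The arrays were SFRP5 CLP, WT CLP, SFRP5 LSK and WT LSK, with 1 array for each group. SFRP5 cells came from mice that carry a transgene for SFRP5, a secreted protein that binds Wnt ligands, and WT cells came from their wild-type littermates. LSK cells were gated as lineage-negative, c-kit high and Sca-1 positive, the gate that holds stem cells and multipotent progenitors. CLP cells were lineage-negative and IL7Rα positive with low c-kit and low Sca-1, a gate which enriches for common lymphoid progenitors. The sources used here do not give the promoter that drives the transgene, the number and sex of the mice behind each RNA, or any pooling. Since each group is a single array, no value has an error between samples and no test between groups was made, so "higher" and "lower" describe these arrays.

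A ribosome reads messenger RNA with its small subunit and joins amino acids in its large subunit, and each subunit is a frame of ribosomal RNA with many small proteins bound to it. Cells make these proteins in matched amounts, and dividing progenitors make them in quantity. In vertebrates their messenger RNAs begin with a terminal oligopyrimidine tract, a C followed by a run of C and T, through which mTOR signalling and Larp1 set how much of the message is translated. Loss of 1 copy of certain of these genes in humans causes Diamond-Blackfan anaemia, in which red cell production fails.

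Start-site windows were available from RefSeq (GRCm38.p6) for 56 of the 76 members, and a few are printed as examples of the pyrimidine run near the start. The choice leans to long runs. Many other members have short ones in windows of this length, such as Rps3 and Rpl23 with 3 bases each and Rps4x with 4. Each line holds the gene strand from 25 bases before to 20 bases after the annotated start, with the longest run of C and T in capitals.
Rpl7a: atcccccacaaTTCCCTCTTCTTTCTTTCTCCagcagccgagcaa
Rpl27a: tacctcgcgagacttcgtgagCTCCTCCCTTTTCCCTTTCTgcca
Rps10: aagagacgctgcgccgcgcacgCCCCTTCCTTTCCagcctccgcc
Rplp2: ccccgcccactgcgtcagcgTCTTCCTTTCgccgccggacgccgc
Rps27: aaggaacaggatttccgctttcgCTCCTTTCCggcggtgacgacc
Rps24: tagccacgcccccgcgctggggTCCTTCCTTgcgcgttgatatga
Rpl41: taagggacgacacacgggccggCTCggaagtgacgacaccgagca
These windows lie at chr2:26910782-26910826 (plus strand, Rpl7a), chr7:109519170-109519214 (plus, Rpl27a), chr17:27635225-27635269 (minus, Rps10) and chr7:141447626-141447670 (plus, Rplp2). The others lie at chr3:90213629-90213673 (minus, Rps27), chr14:24490653-24490697 (plus, the upstream start of Rps24) and chr10:128549149-128549193 (minus, Rpl41). The run has 21 bases in Rpl7a, 20 in Rpl27a, 13 in Rps10, 10 in Rplp2, 9 in Rps27 and in Rps24, and 3 in Rpl41. Within 50 bases of the start on either side, 47 of the 56 members (83.9%) had a run of at least 8 C or T on the gene strand, against 39.3% of 27025 genes with a window. ACTTCCG, on either strand of the window from 250 bases before to 50 after the start, was found in 35.7% of members and 7.20% of all genes. CTCTTTC, on the gene strand of that window, was found in 21.4% of members and 4.60% of all genes, and as it holds only C and T it can be part of a pyrimidine run. TATAAA on the gene strand was found in 8.93% of members and 9.77% of all genes.

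Between 65.4% and 70.2% of 55681 probes were well above background by the scanner software's flag, and no spot was saturated. All 178 probes of the members were well above background on all 4 arrays, so no filter removed a member. Levels are given as log2 of the processed signal minus the 75th percentile of the same array, which was a signal of 290.9 in SFRP5 CLP, 227.2 in WT CLP, 277.5 in SFRP5 LSK and 276.5 in WT LSK. The brightest probe stands for a gene with several probes. Processed signals of these probes ran from 2080 (Rps19 in WT LSK) to 74744 (Rps9 in WT CLP), and since probes differ in how well they bind, levels of different genes are not ranked here. All arrays lie on 1 slide, on which genotype runs with the row and sort with the column, so position and group cannot be told apart. The only other error at hand is that between spots of 1 probe within an array. A dimmer probe of Rpl23, not the brightest one that stands for the gene, was printed 10 times. Its SD on the log2 scale was 0.10 in SFRP5 CLP, 0.09 in WT CLP, 0.10 in SFRP5 LSK and 0.06 in WT LSK. Every other probe of the members stands on 1 spot, and the arrays' bright probes with several spots had median SDs from 0.06 to 0.07.

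The members moved between the arrays almost as 1 block. The median level over the 76 genes was 6.28 in SFRP5 CLP, 6.80 in WT CLP, 6.28 in SFRP5 LSK and 5.93 in WT LSK. WT CLP was the highest array for 75 members and WT LSK the lowest for 74. The exceptions were Rps3, whose brightest probe was highest in WT LSK and lowest in WT CLP, and Rps24, lowest in SFRP5 CLP. Both SFRP5 arrays thus lay between the WT arrays for nearly all members, with medians that were the same to 2 decimals.

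**Figure D1:**
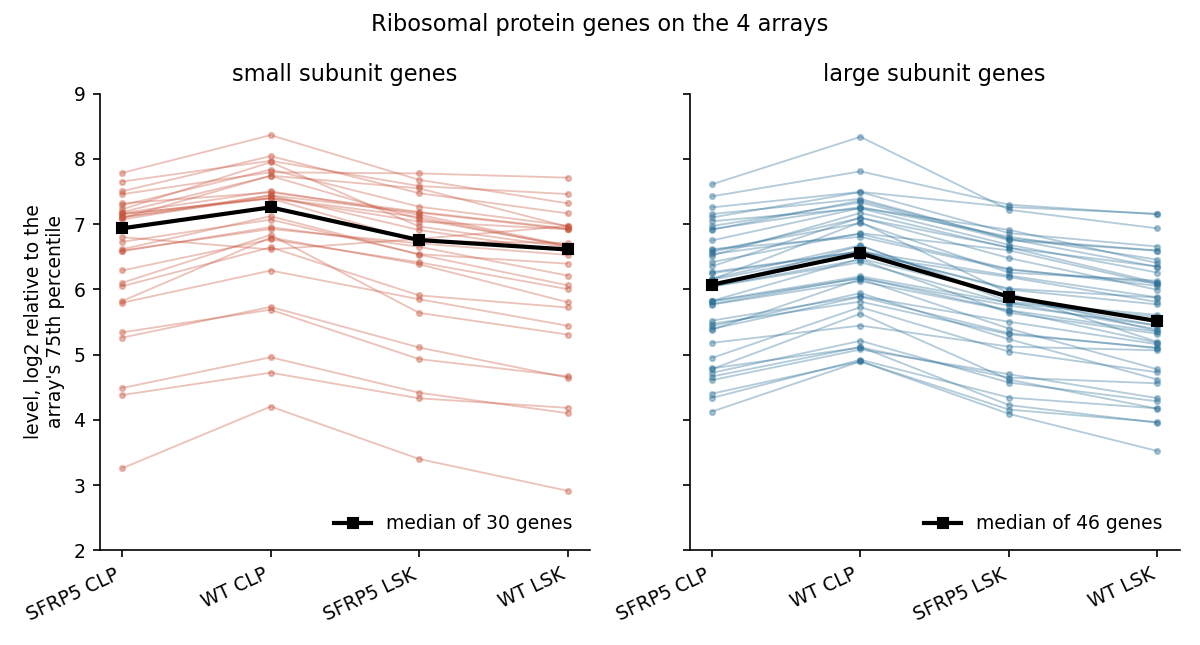
Level of each ribosomal protein gene (log2 relative to the 75th percentile of its array) on the 4 arrays, with the 30 small subunit genes on the left, the 46 large subunit genes on the right, 1 thin line per gene and the median as a thick line. Both subunits have the same shape, lowest in WT LSK and highest in WT CLP, with Rps3 as the line of the left panel that runs the other way.

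The comparison of SFRP5 with WT LSK asks what the transgene goes with in the stem and progenitor gate. There 75 of 76 members were higher in SFRP5 LSK than in WT LSK, with a median log2 difference of 0.31 (1.24-fold), where 51.3% of all 16147 genes measured were above 0 with a median of 0.02. The number above 0 was also 75 after normexp background correction, and it was 68 under quantile normalization, 52 under cyclic loess and 67 in the authors' deposited table. A difference of at least 0.32 on the log2 scale was used to count members that stood clearly apart. The share of all genes measured that reached it, the background, is given in brackets. In LSK 35 members were higher in SFRP5 by that much (background 30.8%), and 0 were 2-fold higher (background 6.58%). That count was 7 under cyclic loess, 15 under quantile normalization and 75 under median scaling, and the median ran from 0.09 to 0.63. Members spread less than genes at large, with an interquartile range of 0.23 against 0.85 over all genes measured. Other genes in the members' range of level (1505 genes) had an interquartile range of 0.47 and a median of 0.22. Bright genes in general thus lay above 0 on this scale and the members stood 0.09 above those.

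The members farthest apart in LSK were at the stalk and on both subunits. Rplp1, a protein of the P stalk that recruits translation factors to the large subunit, had a level of 5.94 in SFRP5 LSK and 5.19 in WT LSK, a difference of 0.75. Rpl27a and Rpl18, both of the large subunit, were each 0.62 higher. Rps29 and Rps27, small zinc-binding proteins of the small subunit, were 0.59 and 0.58 higher. At the low end Rpl5, which carries the 5S ribosomal RNA, differed by 0.09, and Rps24, a small subunit protein needed to process the ribosomal RNA precursor, by 0.07. Rpl13a, in human cells also a regulator of inflammatory messages, differed by 0.06, and Rps27a, made as a fusion to ubiquitin, by 0.03. These 4 members were below 0 under cyclic loess, at -0.11 for Rpl5, -0.18 for Rps24, -0.15 for Rpl13a and -0.21 for Rps27a. The 2 further probes of Rpl13a were 0.51 and 0.49 higher in SFRP5 LSK, so its low place holds for its brightest probe. Rps3, at the messenger RNA entry of the small subunit, was 0.20 lower on its brightest probe, while its other probes were higher, as given further on.

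The comparison of SFRP5 with WT CLP asks the same in the lymphoid progenitor gate, and the members went the other way. There 75 of 76 were lower in SFRP5 CLP than in WT CLP, with a median difference of -0.43 (1.35-fold), where 53.4% of 15964 genes were below 0 with a median of -0.04. Lower by at least 0.32 were 62 members (background 26.4%) and 0 were 2-fold lower (background 4.31%). That count was 20 under quantile normalization, with a median of -0.21, and 31 under cyclic loess. Other genes in the members' range of level had a median of -0.06, so the members lay 0.38 below genes of like brightness, and from 0.32 to 0.38 below them under the 8 alternative settings. Of the 4 comparisons, this one set the members farthest from genes of like brightness. Between 68 and 75 members were below 0 under every setting.

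Rps27 was lowest, with 5.82 in SFRP5 CLP and 6.79 in WT CLP, a difference of -0.97. Rps19, which matures the small subunit and is the gene most often mutated in human Diamond-Blackfan anaemia, had 3.26 in SFRP5 CLP and 4.20 in WT CLP, a difference of -0.95. Rplp1 differed by -0.88, Rpl7a by -0.85 and Rpl17 by -0.78. The place of Rpl7a rests on its brightest probe, since its 3 further probes differed by -0.29, -0.23 and -0.23. The further probes of Rps27 differed by -0.67, -0.70 and -0.58, also nearer 0 than its brightest. The members nearest 0 were Rpl29 at -0.23, Rpl10 at -0.20, Rpl3 at -0.19 and Rps3a at -0.17, and all 4 were above 0 under quantile normalization. Rpl10 joins the large subunit late in its assembly, Rpl3 lies near the site of peptide bond formation, and Rpl29 is a large subunit protein without which mice live but stay small. Rps3 alone was higher in SFRP5 CLP, by 0.19 on its brightest probe.

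Seen gene by gene, members that were farther below WT in CLP tended to be farther above WT in LSK. Over the 76 members the 2 genotype differences, which share no array, correlated with Pearson r = -0.61 and Spearman rho = -0.53, and over the 1505 other genes with r = -0.22 and rho = -0.29. The correlation was -0.70 over the 30 small subunit genes and -0.53 over the 46 large subunit genes. Rps3 enters the values over the small subunit and over all members by its brightest probe, which lies apart from every other member. Its other probes had the opposite signs, as given further on, and the correlation without Rps3 was not computed. Genes are not independent, and probe brightness and amplification are shared by all points, so this is a description only. The genotype difference in CLP minus that in LSK was below 0 for 75 members (background 52.8%), with a median of -0.74, against -0.28 in other genes of their range. Rplp1 had the lowest value at -1.62, then Rps27 at -1.56 and Rps19 at -1.43. Rps3 had the highest at 0.39, followed by Rps27a at -0.26 (0.18 under cyclic loess) and Rpl13a at -0.32 on its brightest probe.

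**Figure D2:**
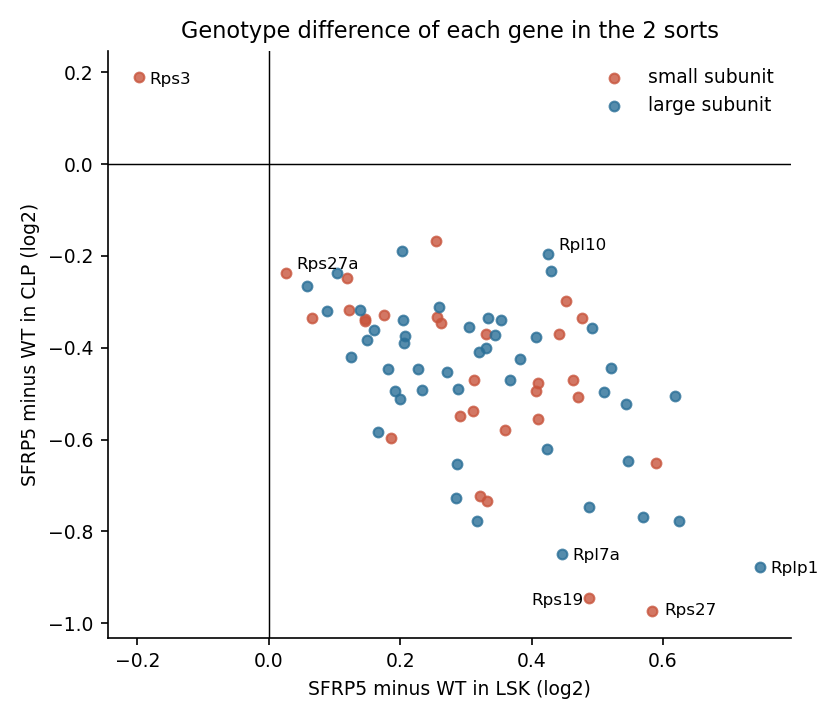
SFRP5 minus WT of each member (log2), with CLP on the vertical axis and LSK on the horizontal axis, with small and large subunit genes in 2 colours. All points except Rps3 lie at the lower right, lower in SFRP5 CLP and higher in SFRP5 LSK. The cloud slopes down with r = -0.61, Rps3 included.

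Genotype is not the only thing that separates these pairs of arrays. Xist, the RNA of the inactive X chromosome, had levels of 4.50 in CLP and 4.99 in LSK on the SFRP5 arrays and was not well above background on either WT array. Uty, Kdm5d, Ddx3y and Eif2s3y, all Y-linked, were lower on both SFRP5 arrays than on the WT array of the same sort. Their differences ran from -2.26 to -1.03 in CLP and from -1.66 to -0.82 in LSK. All 5 of these genes, Xist included, were well above background on both SFRP5 arrays. The 4 X-linked members (Rps4x, Rpl10, Rpl36a and Rpl39) had a median genotype difference of -0.35 in CLP and the 72 autosomal members -0.45, while in LSK the medians were 0.28 and 0.31. Immediate early genes, switched on by stimuli such as cell handling, had a median level of 1.92 in SFRP5 CLP, 0.51 in WT CLP, 2.80 in SFRP5 LSK and 1.64 in WT LSK. The 1 probe for mouse Sfrp5 had levels of -0.00 in SFRP5 CLP, -0.02 in WT CLP, -0.31 in SFRP5 LSK and -0.23 in WT LSK, and the sources used here do not say whether it can detect the transgene. The part of sex-linked or immediate early differences in the members' values was not tested.

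The comparison of CLP with LSK in WT marrow asks how the gates differ without the transgene, and it held the members' widest differences. In WT marrow 75 of 76 were higher in CLP than in LSK (background 50.6%), with a median of 0.83 (1.78-fold) against 0.02 over 16038 genes. Higher by at least 0.32 were 74 (background 38.3%) and at least 2-fold higher 21 (background 17.8%). Of the 1505 other genes in their range of level, 913 were higher by at least 0.32 and 425 at least 2-fold higher. The members' 2-fold share was thus near that of genes of like brightness. Other genes in their range of level had a median of 0.59, but also an interquartile range of 1.27, against 0.32 for the members. The members' median stayed above 0 under every scaling, from 0.19 under cyclic loess to 1.21 after subtraction of each array's median.

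Rplp1 had 7.03 in WT CLP and 5.19 in WT LSK, a difference of 1.84. Rps10, a small subunit protein that human cells tag with ubiquitin when ribosomes collide, had 6.83 in WT CLP and 5.31 in WT LSK, a difference of 1.53. Rpl7a differed by 1.46, Rpl41, the shortest ribosomal protein, by 1.40 and Rpl27a by 1.38. The 3 further probes of Rpl7a differed by 0.71, 0.87 and 0.83, near the members' median. At the other end Rps4x differed by 0.40, Rpl13a by 0.38, Rpl23 by 0.33 and Rps24 by 0.08, and Rps3 by -0.36 on its brightest probe. Rpl13a, Rpl23, Rps4x and Rps24 were below 0 under quantile normalization, cyclic loess and the authors' scaling. Members with brighter probes differed a little less: r between level and difference was -0.28 over 76 members, and the median was 0.78 in the brightest 19 and 0.93 in the dimmest 19.

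The same comparison in SFRP5 marrow gave differences near 0. Here 54 of 76 members were higher in CLP than in LSK (background 51.5%), with a median of 0.09, a direction that turned to -0.08 under quantile normalization, -0.13 under cyclic loess and -0.09 in the authors' deposited table. Higher by at least 0.32 were 10 members (background 33.3%) and lower by as much 2 (background 28.2%), and 0 reached 2-fold in either direction. Other genes in the members' full range of level had a median of 0.20, above that of the members. The 288 other genes in the members' interquartile range of level had 0.07, below it. Rps10 was highest at 0.46, with 6.10 in SFRP5 CLP and 5.64 in SFRP5 LSK. It was followed by Rpl35a at 0.44, Rps27a at 0.42, and Rps2 and Rpl8 at 0.41 each. Rps27 was lowest at -0.57, with 5.82 in SFRP5 CLP and 6.38 in SFRP5 LSK, then Rps29 at -0.46 and Rps24 at -0.32, and Rpl37 was at -0.16. Rps27 and Rps29 thus stood among the members that were lower in CLP in SFRP5 marrow, whereas in WT marrow they were 0.99 and 0.78 higher in CLP. These values are from their brightest probes. In SFRP5 the further Rps27 probes were at -0.245, -0.30 and -0.31, and the further Rps29 probes at -0.29 and -0.27. No further probe of either gene was lower by 0.32. Across genes the 2 sort differences correlated with r = 0.29 over the members and r = 0.79 over the 1505 other genes.

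**Figure D3:**
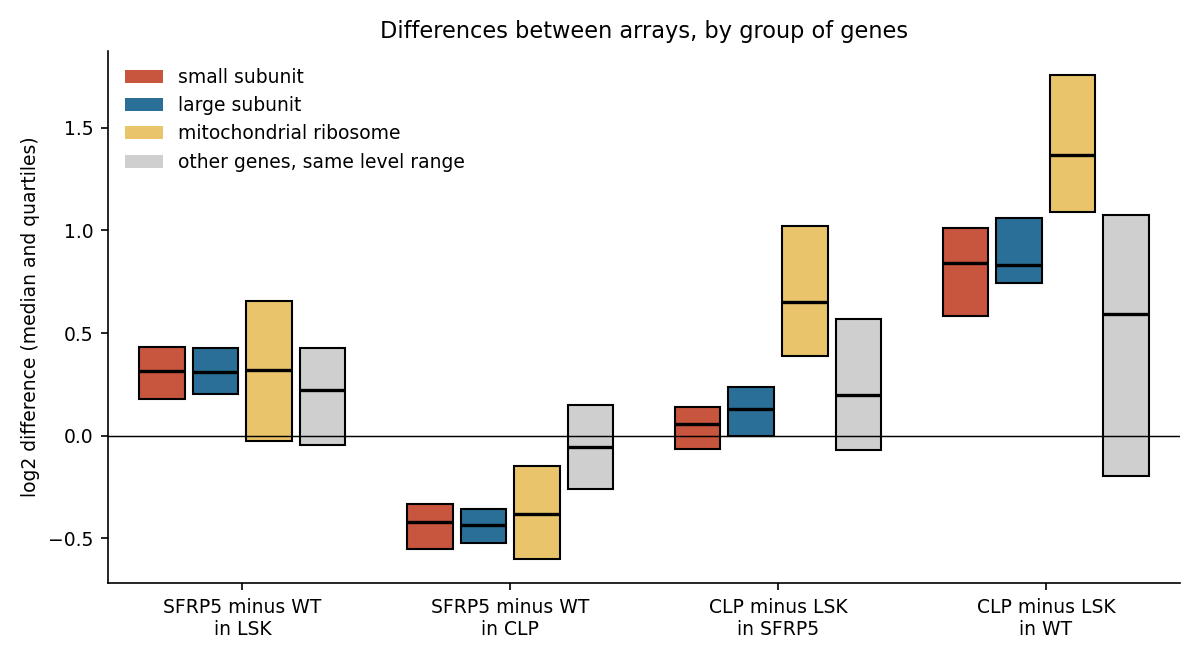
Median (line) and quartiles (box) of the log2 difference in each of the 4 comparisons for small subunit, large subunit and mitochondrial ribosomal protein genes and for other genes in the members' range of level. The cytosolic boxes are narrow. They lie above 0 for the LSK genotype difference, below 0 for the CLP one, near 0 for the sort difference of SFRP5 (where the sign depends on the scaling) and above 0 for that of WT.

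Markers of other cell types also differed between the sorts. The median level of 14 erythroid genes was 3.61 in SFRP5 CLP and -0.08 in SFRP5 LSK, and 4.24 in WT CLP and -0.32 in WT LSK. That of 22 proliferation genes was 2.76 in SFRP5 CLP and 1.73 in SFRP5 LSK, and 3.01 in WT CLP and 1.31 in WT LSK. The proliferation median was thus lowest in WT LSK and highest in WT CLP, like that of the members. This order was not particular to proliferation genes. It also held for the median levels of the erythroid list, the granulocyte and monocyte list, and 14 mast cell, basophil and eosinophil genes. The last of these ranged from -2.42 (WT LSK) to 1.91 (WT CLP). The B lineage list and the T and NK list peaked in SFRP5 CLP instead (2.54 and -1.50). The median genotype difference of the proliferation genes was -0.11 in CLP and 0.55 in LSK. That of the erythroid genes was -0.65 in CLP and -0.49 in LSK. In LSK 8 of 13 erythroid genes measured were lower in SFRP5 (background 48.7%), although the list's median level was lower in WT LSK. For the mast cell, basophil and eosinophil genes the median genotype difference was -0.43 in CLP and 1.06 in LSK. Of the 14 erythroid genes, 14 were above background on each CLP array and 13 on each LSK array. Granulocyte and monocyte genes (14) had median levels of 2.88 in SFRP5 CLP and 0.24 in SFRP5 LSK, and of 3.05 in WT CLP and -1.25 in WT LSK. Of 4 genes listed as sort markers, 3 were lower and 1 was higher in CLP in both genotypes, and 1 of the 4 is not reported here. Kit was lower in CLP by 1.71 in SFRP5 and by 2.33 in WT, and Ly6a by 1.72 and 2.20. Il7r was higher by 2.24 and 3.03. In these bulk samples fewer cells of a type and less RNA per cell cannot be told apart, and the part of cell makeup in the members' differences was not tested.

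Small and large subunit genes had nearly the same medians. For genotype in CLP the median was -0.42 in small subunit genes and -0.43 in large subunit genes, against 0.32 and 0.31 in LSK. Between sorts in WT the small subunit had 0.84 and the large subunit 0.83. The widest gap was between sorts in SFRP5, with 0.06 in small and 0.13 in large subunit genes, a difference of -0.07. Small minus large ranged from -0.12 to 0.08 over all comparisons of 2 arrays and all settings. Both members lower by at least 0.32 on their brightest probes in that comparison, Rps27 and Rps29, belong to the small subunit. So does the next lowest, Rps24. The further probes of Rps27 and Rps29 did not reach 0.32 there.

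Within the large subunit, the stalk that binds elongation factors consists of Rplp0, Rplp1 and Rplp2 on a base with Rpl12. Their differences between SFRP5 and WT CLP were -0.51 for Rplp0, -0.88 for Rplp1, -0.39 for Rplp2 and -0.42 for Rpl12. In LSK they were 0.20, 0.75, 0.21 and 0.12 in the same order, and under cyclic loess Rplp0, Rplp2 and Rpl12 turned to -0.025, -0.031 and -0.11. Rplp1 therefore stood apart from its partner Rplp2, with which it forms dimers, in each of the comparisons with WT LSK or WT CLP, but not between sorts in SFRP5 (0.21 and 0.24). Rplp1 and Rplp2 each have 1 probe on the array. Rpl5 and Rpl11, which carry the 5S RNA and in free form bind Mdm2, differed by -0.32 and -0.49 in CLP and by 0.09 and 0.19 in LSK (both below 0 under cyclic loess).

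Of the small subunit, Rps6, the protein that S6 kinases phosphorylate, was 0.49 lower in CLP and 0.41 higher in LSK. Rpsa, known also as a laminin receptor, was 0.34 lower in CLP and 0.48 higher in LSK, and Rps2 was 0.35 lower and 0.26 higher. These are near the members' medians. The 19 members whose human orthologues are mutated in Diamond-Blackfan anaemia had a median genotype difference of -0.49 in CLP with 19 of 19 below 0, where 75 of all 76 members were. Their median in LSK was 0.33 and between sorts in WT 0.93, each with 19 of 19 above 0 against 75 of 76. In LSK, however, Rps24, Rpl5, Rps15a, Rpl26 and Rpl11 among them turned below 0 under at least 1 alternative setting. Between sorts in WT Rps24 and Rpl5 did so. The 19 include Rps19, Rps27 and Rps10 at one end and Rps24 and Rpl5 at the other, with Rps26 at -0.51 in CLP and 0.47 in LSK in between.

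Some members are known for roles in particular tissues of mice. Rpl22, without which mice lack most αβ T cells, had 5.47 in SFRP5 CLP, 5.81 in WT CLP, 5.31 in SFRP5 LSK and 5.10 in WT LSK on its brightest probe, close to the members' median pattern. Rpl38, which mouse embryos need to translate certain Hox messages, was 0.34 lower in CLP and 0.35 higher in LSK in SFRP5. Rpl39 and Rpl41, the shortest proteins of the large subunit, were 0.42 and 0.73 lower in CLP and 0.38 and 0.28 higher in LSK. Among members with a start-site window, those with a run of at least 8 pyrimidines had a median of -0.45 in CLP and 0.32 in LSK, against -0.34 in CLP and 0.25 in LSK in the 9 without. These gaps were not tested.

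Rps24 was the member whose probes disagreed most, and the disagreement lay between sorts. The probe that the array annotates to transcript variant 1 had levels of 3.74 in SFRP5 CLP, 3.80 in WT CLP, 6.38 in SFRP5 LSK and 6.21 in WT LSK. It was thus 6.25-fold lower in CLP than LSK in SFRP5 and 5.31-fold lower in WT, log2 differences of -2.64 and -2.41. The probe for variant 3, the brightest, had 7.46 in SFRP5 CLP, 7.79 in WT CLP, 7.78 in SFRP5 LSK and 7.71 in WT LSK, differences of -0.32 and 0.08 between sorts. The probe for variant 2 differed by -0.08 between sorts in SFRP5 and by 0.75 in WT, with levels of 4.21 in SFRP5 CLP, 4.29 in SFRP5 LSK and 4.75 in WT CLP, and so followed the other members. A probe to a cDNA clone with a retained intron followed variant 3. Between genotypes the variant 1 probe differed by only -0.06 in CLP and 0.17 in LSK. Over the alternative settings its sort difference lay between -2.90 and -2.57 in SFRP5 and between -2.97 and -2.03 in WT, so it was lower in CLP under each. Rps24 is known to be spliced into variants that differ in short exons near the end of its coding sequence. The probe sequences were not used here, so that each probe reads the variant it is annotated to was not checked.

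**Figure D4:**
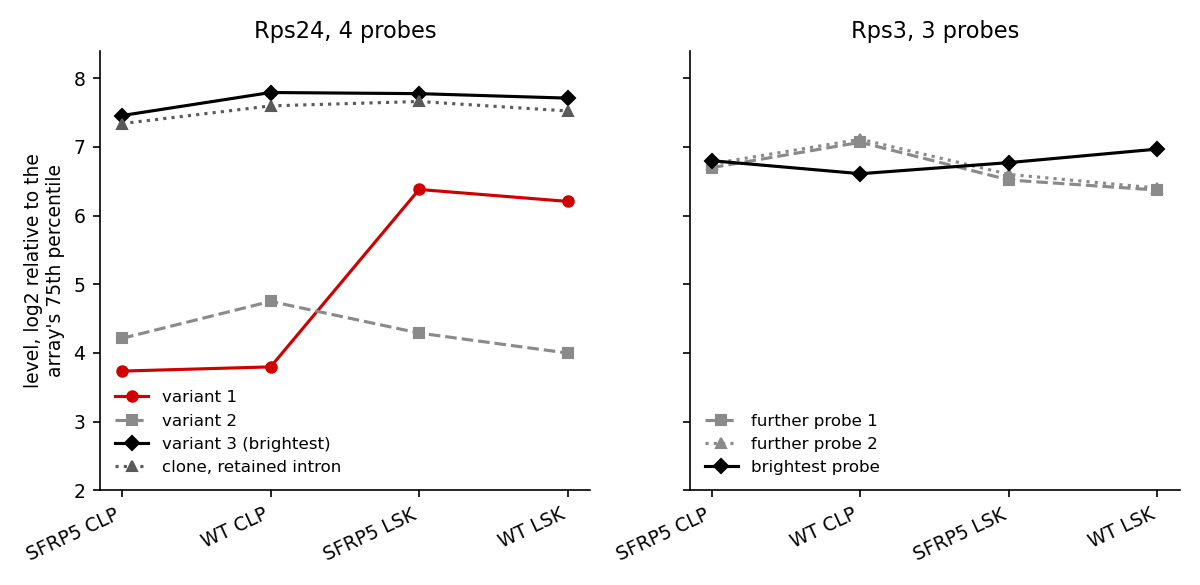
Level (log2 relative to the 75th percentile of the array) of the 4 Rps24 probes on the left and the 3 Rps3 probes on the right, on the 4 arrays. The Rps24 variant 1 probe stands at 3.74 and 3.80 on the CLP arrays and at 6.38 and 6.21 on the LSK arrays while the other 3 move far less, and the brightest Rps3 probe runs opposite to the other probes of Rps3.

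Rps3, the only member whose genotype differences had signs opposite to those of the others, had them on 1 probe of 3. Its brightest probe had 6.80 in SFRP5 CLP, 6.61 in WT CLP, 6.77 in SFRP5 LSK and 6.97 in WT LSK. A further probe had 6.70 in SFRP5 CLP, 7.07 in WT CLP, 6.52 in SFRP5 LSK and 6.37 in WT LSK. The remaining probe had 6.75 in SFRP5 CLP, 7.11 in WT CLP, 6.60 in SFRP5 LSK and 6.40 in WT LSK. Both further probes gave genotype differences (-0.37 and -0.36 in CLP, 0.15 and 0.20 in LSK) like those of the other members. With the mean of its probes in place of the brightest, Rps3 was 0.35 higher in CLP than LSK in WT.

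In all, 56 members had 102 further probes. The median absolute gap between a further probe and the brightest was 0.12 for genotype in CLP, 0.11 in LSK, 0.11 between sorts in SFRP5 and 0.18 in WT. Counted over all 178 probes, 170 were below 0 for genotype in CLP and 171 above 0 in LSK. A gap of at least 0.5, the same way in both genotypes, occurred between sorts for 7 further probes of 6 genes, a size chosen after the values were seen. Beside Rps24 these included probes of Rpl22, Rpl13a, Rpl30 and Rpl17. The further Rpl22 probe had 1.57 in SFRP5 CLP, 1.26 in WT CLP, 2.88 in SFRP5 LSK and 2.47 in WT LSK, so it was lower in CLP (-1.31 in SFRP5 and -1.20 in WT) where the brightest probe was higher by 0.16 and 0.71. The 5 other probes had a larger CLP minus LSK difference than their gene's brightest probe. Both further Rpl13a probes were about 0.95 higher in CLP in SFRP5 (0.95 and 0.97) and 1.95 and 2.03 higher in WT. The probe for variant 1 of Rpl30 was 1.04 higher in SFRP5 and 1.63 higher in WT. The Rpl17 probe was 1.12 higher in SFRP5 and 1.65 higher in WT. For the genotype difference a gap of at least 0.5 occurred for 16 further probes in CLP and 5 in LSK, of which 1 had it the same way in both sorts. That was the Rpl23 probe printed 10 times, 0.33 higher in SFRP5 CLP and 0.84 higher in SFRP5 LSK. The brightest Rpl23 probe differed by -0.24 in CLP and 0.10 in LSK, so their signs were opposite in CLP.

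**Figure D5:**
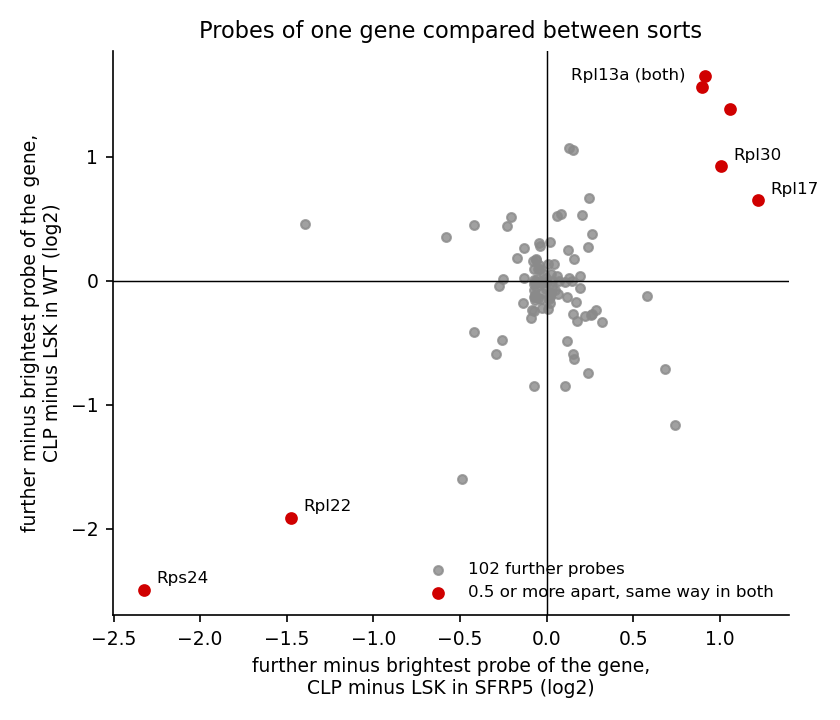
For each of 102 further probes, its CLP minus LSK difference less that of the brightest probe of its gene (log2), in SFRP5 on the horizontal axis and in WT on the vertical axis. The 7 probes in red are at least 0.5 apart the same way in both genotypes, with Rps24 and Rpl22 at the lower left and Rpl13a, Rpl30 and Rpl17 among those at the upper right.

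Ribosomal protein genes have many processed copies elsewhere in the genome, and the array lists a band on another chromosome than the gene's for 24 of 177 probes with both. The CLP genotype median was -0.50 over those 24 and -0.39 over the 153 on the gene's own chromosome, and the LSK one was 0.34 and 0.30. Between sorts the medians were -0.10 and 0.09 in SFRP5 and 0.76 and 0.83 in WT, with the 24 probes first. Signal from a gene and from a near-identical copy cannot be told apart on these probes.

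Other genes of translation are given beside the shares of all genes and of other genes in the members' range of level. Of the genes in that range 56.3% were below 0 for genotype in CLP and 72.2% above 0 in LSK. Of 12 elongation and termination genes, 10 were below 0 for genotype in CLP (median -0.36) and 8 above 0 in LSK (median 0.21), with 8 lower by at least 0.32 in CLP (background 26.4%). In LSK 4 were higher by as much, a share near the background of 30.8%, and the median there was -0.02 under cyclic loess. Eef1g, a subunit of the factor that reloads Eef1a1, was 0.48 lower in CLP and 0.43 higher in LSK. Of 33 initiation factor genes measured, 26 were below 0 in CLP (median -0.22), and 28 were above 0 in LSK (median 0.37). Eif3f, a subunit of the scaffold that holds the small subunit, had 2.90 in SFRP5 CLP, 3.51 in WT CLP, 3.11 in SFRP5 LSK and 2.39 in WT LSK. Of 18 other genes known for oligopyrimidine starts, 16 were below 0 in CLP (median -0.31) and 18 above 0 in LSK (median 0.35). Most of these, among them Eef1g and Eif3f, are also in the elongation or initiation list, so the lists are not separate. Fau, which encodes a further ribosomal protein as a fusion with a ubiquitin-like domain, differed by -0.49 in CLP and by 0.21 in LSK. Rack1, a protein bound to the small subunit, differed by -0.47 in CLP and 0.34 in LSK.

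Between sorts these lists differed from the members in SFRP5, where the elongation genes had a median of 0.44 and the initiation genes 0.54, against 0.09 for the members. In WT they had 0.97 and 1.07, against 0.83. Genes that build ribosomes (50) had genotype medians close to 0, at -0.09 in CLP (0.03 under quantile normalization, 0.01 under cyclic loess and 0.01 in the authors' deposited table) and 0.14 in LSK. Their sort medians were 0.54 in SFRP5 and 0.73 in WT. The genotype median of the mTOR and S6 kinase signalling genes (24 listed) was 0.10 in CLP and 0.12 in LSK (-0.00 in the authors' deposited table). Among them Larp1, the repressor that binds oligopyrimidine starts, was 0.35 higher in CLP and 0.17 higher in LSK, and Mtor was 0.68 higher in CLP and 0.34 lower in LSK. Targets of p53 and its regulators, which respond when ribosome assembly fails, had a genotype median of 0.01 in CLP and 0.33 in LSK. These lists were not compared by a test.

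Mitochondrial ribosomal protein genes, chosen by their Mrpl and Mrps names, are 78 genes for the separate ribosome inside mitochondria. Their genotype medians were like those of the cytosolic members, -0.38 in CLP and 0.32 in LSK. The counts were lower, with 65 of 78 (83.3%) below 0 in CLP (background 53.4%). In LSK 56 of 78 (71.8%) were above 0 (background 51.3%). Among other genes in the members' range of level the LSK share was 72.2%, but the mitochondrial genes were dimmer than the members. Their median level was 1.13 in WT LSK and 2.76 in WT CLP, against 5.93 and 6.80 for the members. Their interquartile ranges were 0.45 in CLP and 0.68 in LSK, against 0.21 and 0.23 in the brighter cytosolic set. Between sorts they were higher in CLP in both genotypes, with 73 of 78 above 0 and a median of 0.65 in SFRP5, and 77 of 78 and 1.37 in WT. The cytosolic members had 0.09 in SFRP5 and 0.83 in WT.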

How the data were processed

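RNA from 4 sorted samples (6.1 ng of total RNA each, per the labels' protocols amplified with the Ovation Pico WTA System V2) was hybridised in 1 colour. Spot intensities in the deposited scanner files were background-subtracted per the file headers, with Feature Extraction 10.10.1.1. The authors' signal table gives the same intensity multiplied by a constant for each array, which the values put at 4.91 for SFRP5 CLP, 5.86 for WT CLP, 5.85 for SFRP5 LSK and 6.42 for WT LSK. The sources used here do not say how these constants were chosen.

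Processed intensities were put on the log2 scale (Python 3.11.15, pandas 2.3.3) and the 75th percentile of each array's non-control spots was subtracted. Outlier spots were left out, and spots of a probe were averaged. The brightest probe by the mean of the 4 arrays stood for each gene, and a gene counted as measured in a comparison when both arrays had it well above background. Differences were counted at 0.32 on the log2 scale and at 2-fold. With 1 array per group there is no p-value and no spread between samples, so precision is limited by the number of arrays. Steps were tested on simulated data.

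Alternatives were normexp correction (offset 50), quantile and cyclic loess normalization (limma 3.58.1 in R 4.3.3), median scaling, the authors' table, averaging all probes of a gene and 2 other filters on dim probes. Normexp used the median signal of each spot, since the files used here give no mean signal. The members and the 25 gene lists were chosen with earlier results of these data known. Named members are the 5 highest and 5 lowest of each comparison, the 3 highest and 3 lowest differences between genotype differences, the listed subgroups, and probes that disagree, which were picked after their values were seen. Genes of other lists were named as examples after their values were seen. The mitochondrial set and the counts by probe gap and by level were also added then. A few genes that these rules pick are not reported here, though counts and medians include them.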

Additional observations from a re-analysis of the deposited data

Results flagged for a closer look

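The genotype difference of the ribosomal protein genes had opposite signs in the 2 sorts. The median over all members was -0.43 in CLP and 0.31 in LSK. Over the small subunit it was -0.42 in CLP and 0.32 in LSK, and over the large subunit -0.43 in CLP and 0.31 in LSK. It was below 0 in CLP and above 0 in LSK for 75 of 76 members. Under cyclic loess 52 members were above 0 in LSK, and 67 in the authors' table. With 1 array per group the difference between the sorts was not tested.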

How the results depend on the processing

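Under quantile normalization, cyclic loess, median scaling and the authors' table, in that order, the median for genotype in LSK was 0.17, 0.09, 0.63 and 0.19, with 15, 7, 75 and 17 members higher by at least 0.32 in place of 35. The median between sorts in WT was 0.31, 0.19, 1.21 and 0.42, and that of the CLP minus the LSK genotype difference was -0.37, -0.37, -1.04 and -0.51. For genotype in CLP it was -0.21 under quantile normalization and -0.24 under cyclic loess, with 20 and 31 members lower by at least 0.32 in place of 62, and 39 in the authors' table. Between sorts in SFRP5 it turned to -0.077 under quantile normalization, -0.13 under cyclic loess and -0.093 in the authors' table, where 1, 0 and 0 members were higher and 6, 11 and 6 lower by at least 0.32. The mean of a gene's probes also gave 6 lower there. Between sorts in WT, quantile normalization left 36 and cyclic loess 27 higher by at least 0.32, in place of 74, and the mean of a gene's probes put small minus large subunit at -0.12. Median scaling moved the median of all genes by 0.32 for genotype in LSK and by 0.38 between sorts in WT, and the authors' scaling moved the sort medians by -0.19 in SFRP5 and -0.41 in WT.

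Some members near 0 changed sign in each comparison under at least 1 scaling. Between sorts in WT, members with larger differences also did so. Under quantile normalization Rpl13a was at -0.20, Rpl23 at -0.11, Rps4x at -0.12 and Rpl5 at -0.026. Under cyclic loess Rpl13a was at -0.19, Rpl23 at -0.37 and Rps4x at -0.27. In the authors' table Rpl13a was at -0.034, Rpl23 at -0.079 and Rps4x at -0.017. With the mean of probes Rpl22 was at -0.25 and Rps3 at 0.35, and Rps3 was at 0.018 under median scaling. Between the genotype differences Rpl13a was at 0.058 under quantile normalization and 0.033 under cyclic loess, Rps27a at 0.069 and 0.18 under the same settings, Rps24 at 0.081 under cyclic loess and Rps3 at -0.23 with the mean of probes. The cause was not tested. Genes of like brightness were taken over the members' full range of level. The members' distance from them ran from -0.38 to -0.32 for genotype in CLP and from 0.065 to 0.12 in LSK. Between sorts it ran from -0.11 to -0.050 in SFRP5 and from 0.16 to 0.30 in WT. Its sign in SFRP5 depends on the genes matched, since those in the members' interquartile range of level had a median of 0.07 against 0.09.

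With 1 array per group, no value here has been repeated in a second sample. Spots of 1 probe within an array had an SD near 0.06 to 0.10 on the log2 scale. The error between samples, amplifications and arrays was not measured. The smallest detectable difference between arrays therefore cannot be given. No paired analysis was possible because each group has 1 array.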
